A study of Mus musculus with 20 samples.

Results

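The genes described here are the D-type cyclins Ccnd1, Ccnd2 and Ccnd3, the cyclin-dependent kinase inhibitors Cdkn1a, Cdkn1b, Cdkn1c and Cdkn2c, and the retinoblastoma family genes Rb1, Rbl1 and Rbl2. They were chosen by name as genes of cell cycle exit, 10 of the 22180 named genes on the array, and each was read from its probe set with the highest mean over the 20 arrays. All values come from C2C12, a single established mouse myoblast line kept in serum below confluence, on Affymetrix mouse gene arrays. The groups were recombinant BMP4 at 10, 100 and 300 ng/ml (2 arrays each), the compounds 942, 178 and 181 at 6.25, 12.5 and 25 µM (1 array per compound and dose), methanol (3 arrays) and untreated cells (2 arrays). By its title and design text, the series studies small activators of the BMP pathway and compares what they do with what BMP4 does. BMP4 was set against untreated cells and the compounds against methanol, taken as their vehicle, and the sources used here do not give the time under treatment. The labels do not state that replicate arrays stem from independent cultures, and the p-values then measure only a spread that may be technical.

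D-type cyclins bind the kinases CDK4 and CDK6 and start the phosphorylation of the retinoblastoma proteins, which in their unphosphorylated state hold E2F factors back from S-phase genes. The Cip/Kip inhibitors p21 (Cdkn1a), p27 (Cdkn1b) and p57 (Cdkn1c) and the INK4 inhibitor p18 (Cdkn2c) act against cyclin and kinase complexes. When cultured myoblasts leave the cycle to form muscle, p21, cyclin D3 and RB are known to accumulate and cyclin D1 to decline, together with the muscle regulator myogenin (Myog).

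RefSeq promoter windows are shown for Cdkn1a, Cdkn1b and Ccnd3, because these genes, with Ccnd1, passed the BMP4 test described below. The table (GRCm38.p6, from 250 bases before to 50 bases after a start) held 9 windows of 6 of the 10 genes. They were searched on both strands for the E-box CANNTG bound by MyoD and myogenin, the E2F sites TTGGCGC and TTCCCGC, the GC-rich SMAD core GGCGCC and the CCAAT box CCAAT. The letters of TTGGCGC can overlap those of the SMAD core. For each gene the window with the most matches is printed 5′ to 3′ on the gene's strand, with matches in capitals.
Cdkn1a, chr17:29093519-29093818, strand +: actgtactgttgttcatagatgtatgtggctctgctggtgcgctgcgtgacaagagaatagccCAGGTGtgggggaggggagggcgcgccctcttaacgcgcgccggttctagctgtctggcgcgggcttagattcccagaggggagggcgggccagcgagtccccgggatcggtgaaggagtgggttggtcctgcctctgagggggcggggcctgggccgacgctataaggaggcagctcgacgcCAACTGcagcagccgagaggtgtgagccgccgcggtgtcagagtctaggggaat
Cdkn1b, chr6:134920151-134920450, strand +: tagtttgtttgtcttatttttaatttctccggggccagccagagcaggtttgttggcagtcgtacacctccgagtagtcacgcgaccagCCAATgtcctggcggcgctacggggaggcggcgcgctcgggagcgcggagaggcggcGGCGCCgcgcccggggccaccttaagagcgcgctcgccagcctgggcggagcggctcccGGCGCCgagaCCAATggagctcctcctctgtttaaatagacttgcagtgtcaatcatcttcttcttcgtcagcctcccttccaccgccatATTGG
Ccnd3, chr17:47593217-47593516, strand +: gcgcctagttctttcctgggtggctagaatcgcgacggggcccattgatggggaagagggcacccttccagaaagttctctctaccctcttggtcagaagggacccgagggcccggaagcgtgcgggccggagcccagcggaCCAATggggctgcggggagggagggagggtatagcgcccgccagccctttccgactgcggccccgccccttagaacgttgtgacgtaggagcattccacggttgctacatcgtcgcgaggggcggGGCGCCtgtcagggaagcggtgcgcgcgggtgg
The Cdkn1a window held 2 E-boxes, the Cdkn1b window 2 SMAD cores and 3 CCAAT boxes, and the Ccnd3 window 1 SMAD core and 1 CCAAT box. Of all 32851 windows in the table, 72.3% held an E-box, 6.81% an E2F site, 11.9% the SMAD core and 37.4% a CCAAT box. Over the 9 windows of these genes, 4 held an E-box, 1 an E2F site, 3 the SMAD core and 3 a CCAAT box. A match describes letters and is not a shown binding site.

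Values are deposited log2 signals, and a difference of 1 is a doubling. Array medians lay between 4.93 and 5.05, and replicate arrays of BMP4 at 10 ng/ml differed by a median of 0.181 over genes. The myoblast label held, since 6 of 7 myoblast markers (Myod1, Myf5, Des, Cdh15, Chrna1 and Ncam1) lay at least 1 above the array median on all 20 arrays, and 0 of 5 endothelial, 0 of 5 macrophage and 0 of 5 epithelial markers did so. The summed myoblast marker level was 62.42 to 70.16 on BMP4 arrays and 69.91 to 70.81 on compound arrays, against 70.37 to 71.03 on control arrays. The endothelial sum was 21.33 to 22.74 on BMP4 arrays and 20.94 to 22.54 on control arrays, the macrophage sum 21.42 to 23.02 and 21.22 to 21.98, and the epithelial sum 24.5 to 25.67 and 25.26 to 26.11. Of these lists, 4 myoblast markers fell with BMP4 and none of the others passed the test in either direction. The part of the marker shift in the results below was not tested, and in bulk RNA fewer cells of a type and less RNA per cell cannot be told apart.

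The first question was which cyclin and inhibitor genes differed in BMP4-treated myoblasts. Over the 3 doses and against untreated cells, the mRNA of cyclin D1, cyclin D3 and p21 fell and that of p27 rose. The p27 rise did not pass the test against methanol, and the cyclin D1 decrease passed in 21 of 30 alternatives tried. The p21 and cyclin D3 decreases sat at 100 and 300 ng/ml, the cyclin D1 signal was lowest at 300 ng/ml, and p18 rose at 10 ng/ml. Called means a Benjamini-Hochberg adjusted p under 0.05 over all 22180 genes, from limma on all 20 arrays with a term for the labelling method. That term leaves the fitted mean at 300 ng/ml BMP4 to replicate 2 alone. For the mean of the BMP4 doses minus untreated, 1 of the 10 genes rose and 3 fell, where 4.22% of all genes rose and 4.59% fell (8.81% called). Of the 10 genes 5 were higher and 5 lower, with a median difference of -0.14, against -0.01 over all genes. With untreated replicate 1 left out 0 of the 10 genes and 4.02% of all genes were called, and with untreated replicate 2 left out only Ccnd3 and 5.4% of all genes. With BMP4 300 ng/ml replicate 2 left out, the labelling term takes up the other array at that dose, so the mean covers 10 and 100 ng/ml alone, and Cdkn1b, Cdkn2c and 5.94% of all genes were called.

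Cyclin D3, the D-type cyclin of differentiating muscle, was lower at the higher doses of BMP4. Its log2 signals were 10.20 and 10.19 at 10 ng/ml, 9.46 and 9.69 at 100 ng/ml, and 9.46 and 9.29 at 300 ng/ml BMP4, against 10.25 and 10.08 in untreated cells and 10.12 to 10.38 in methanol. At 10 ng/ml the arrays lay inside the control range, and the 4 arrays of the higher doses lay below every control array. The difference from untreated cells was 0.03 at 10 ng/ml, -0.59 at 100 ng/ml (SE 0.118, adjusted p = 0.00660) and -0.87 at 300 ng/ml (SE 0.144, adjusted p = 0.00219). The fitted signal at 300 ng/ml, from replicate 2 alone, was 0.546 times that of untreated cells. Plain means were 9.37 at 300 ng/ml and 10.16 in untreated cells. The mean over doses was -0.48 (SE 0.0999, adjusted p = 0.00887), and the mean of 10 and 100 ng/ml alone was -0.28 (adjusted p = 0.155).

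Cyclin D1, which is coupled to mitogen signals in growing myoblasts, followed another order. Its signals were 9.25 and 8.81 at 10 ng/ml, 9.05 and 9.53 at 100 ng/ml, and 8.67 and 8.49 at 300 ng/ml BMP4, against 9.41 and 9.49 in untreated cells and 9.49 to 9.67 in methanol. Only BMP4 100 ng/ml replicate 2 reached the control range. The difference from untreated cells was -0.42 at 10 ng/ml (adjusted p = 0.391), -0.16 at 100 ng/ml (adjusted p = 0.726) and -0.96 at 300 ng/ml (SE 0.205, adjusted p = 0.0111), the last a signal 0.513 times that of untreated cells. That value at 300 ng/ml is from replicate 2 alone, and plain means were 8.58 at that dose and 9.45 in untreated cells. The mean over doses was -0.51 (SE 0.142, adjusted p = 0.0419). The mean of 10 and 100 ng/ml alone was -0.29 (adjusted p = 0.350), and the call over the 3 doses was lost when either untreated array, methanol replicate 2 or 3, or BMP4 10 ng/ml replicate 2 was left out. That call was also lost with plain moderation (no trend, not robust), with median centring and with a common mean over doses. The sample numbers were split here into a first and a second run, which the labels do not name. Within the first run of sample numbers Ccnd1 at 100 ng/ml was -0.36 from untreated and within the second 0.04.

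Cyclin D2, another partner of CDK4 and CDK6, was low on every BMP4 array. Its signals were 8.28 and 8.10 at 10 ng/ml, 8.01 and 8.09 at 100 ng/ml, and 7.87 and 8.06 at 300 ng/ml BMP4, against 8.37 and 8.51 in untreated cells and 8.50 to 8.71 in methanol. All 6 BMP4 arrays lay below all 5 control arrays, which held for Ccnd2 alone among the 10 genes, while 7.78% of all genes had groups apart in this way. The mean difference from untreated cells was -0.34 (SE 0.103, adjusted p = 0.0630), short of the threshold, and -0.52 from methanol (adjusted p = 0.00225).

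**Figure D1:**
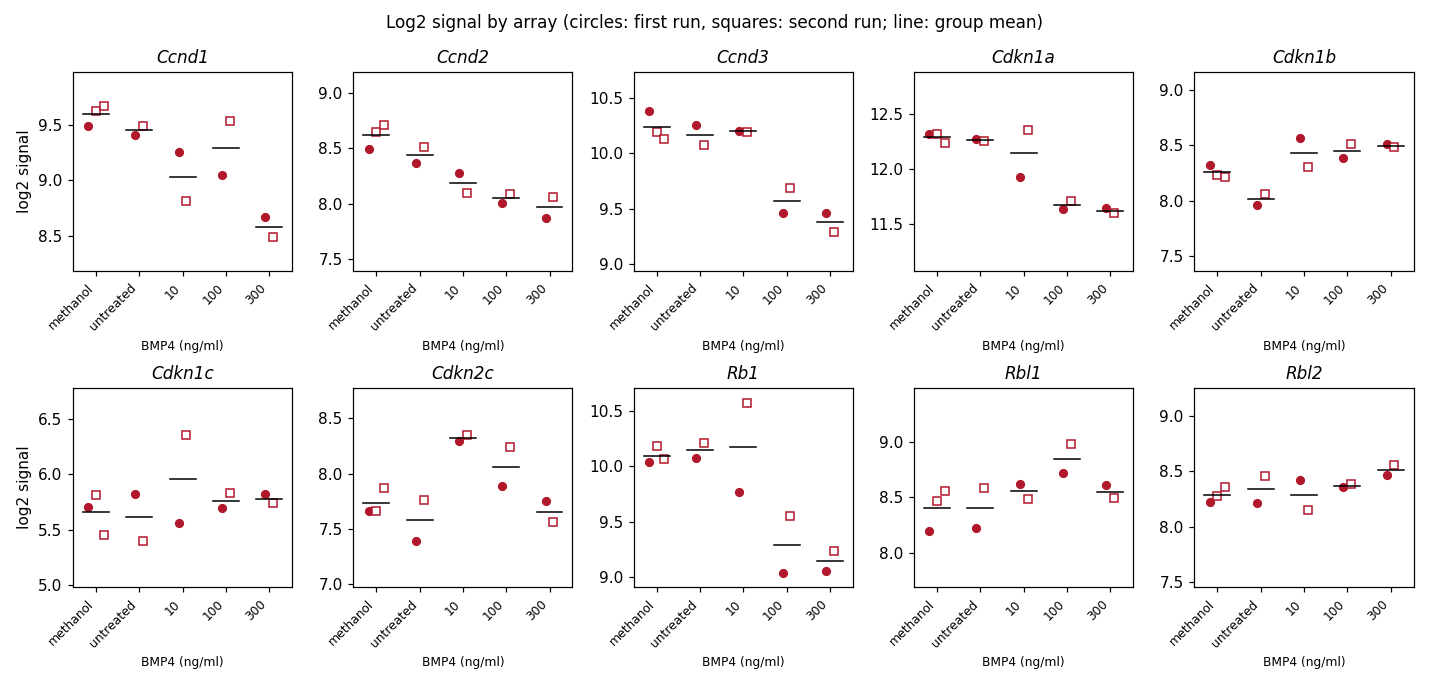
Log2 signal (vertical axis) of the 10 genes on every methanol, untreated and BMP4 array, by BMP4 dose in ng/ml (horizontal axis); circles are arrays of the first run of sample numbers, squares those of the second, and lines mark group means. Cyclin D3 lies at 10.19 and 10.20 with 10 ng/ml BMP4 and at 9.29 to 9.69 with the higher doses, while all 6 BMP4 arrays of cyclin D2 lie at or below 8.28.

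Among the inhibitors, the p21 gene Cdkn1a, which MyoD induces in muscle precursors, was lower at both higher doses. It read 11.93 and 12.36 at 10 ng/ml, 11.64 and 11.72 at 100 ng/ml, and 11.65 and 11.60 at 300 ng/ml BMP4, against 12.27 and 12.26 in untreated cells and 12.23 to 12.32 in methanol. The arrays at 10 ng/ml lay on either side of the controls, and those of both higher doses lay below every control. The difference from untreated cells was -0.12 at 10 ng/ml, -0.59 at 100 ng/ml (SE 0.115, adjusted p = 0.00594) and -0.66 at 300 ng/ml (SE 0.140, adjusted p = 0.0106). The signal was 0.665 times that of untreated cells at 100 ng/ml and 0.631 times at 300 ng/ml. The mean over doses was -0.46 (SE 0.0973, adjusted p = 0.00984), and the mean of 10 and 100 ng/ml alone was -0.36 (adjusted p = 0.0582).

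The other inhibitors did not move with p21. Cdkn1b (p27, which accumulates in resting cells) read 8.57 and 8.30 at 10 ng/ml, 8.39 and 8.51 at 100 ng/ml, and 8.51 and 8.49 at 300 ng/ml BMP4, against 7.96 and 8.06 in untreated cells and 8.21 to 8.32 in methanol. The BMP4 arrays were all above the untreated ones, but replicate 2 at 10 ng/ml lay inside the methanol range. The mean difference was 0.45 from untreated cells (SE 0.105, adjusted p = 0.0182) and 0.20 from methanol (adjusted p = 0.233). Methanol itself stood 0.25 above untreated cells for this gene (95% interval -0.000479 to 0.491).

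Cdkn2c (p18, an inhibitor of CDK4 and CDK6) read 8.29 and 8.35 at 10 ng/ml, 7.88 and 8.25 at 100 ng/ml, and 7.76 and 7.56 at 300 ng/ml BMP4, against 7.40 and 7.76 in untreated cells and 7.66 to 7.87 in methanol. Both lower doses lay above every control array, and 300 ng/ml lay inside the control range. The difference from untreated cells was 0.74 at 10 ng/ml (SE 0.159, adjusted p = 0.0476), 0.49 at 100 ng/ml (adjusted p = 0.0845) and -0.02 at 300 ng/ml. The call at 10 ng/ml was the only one among the 10 genes at that dose, where 0.564% of all genes rose and 0.546% fell (1.11% called). It was lost without either untreated array, any methanol array or either array of that dose.

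Cdkn1c (p57) gave no call. Its signals were 5.56 and 6.36 at 10 ng/ml, 5.69 and 5.83 at 100 ng/ml, and 5.82 and 5.74 at 300 ng/ml BMP4, against 5.83 and 5.40 in untreated cells and 5.45 to 5.82 in methanol. The value of 6.36 was the highest of all 20 arrays, and the other BMP4 arrays, at 5.56 to 5.83, overlapped the controls. The mean difference was 0.21 (SE 0.206, adjusted p = 0.691).

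**Figure D2:**
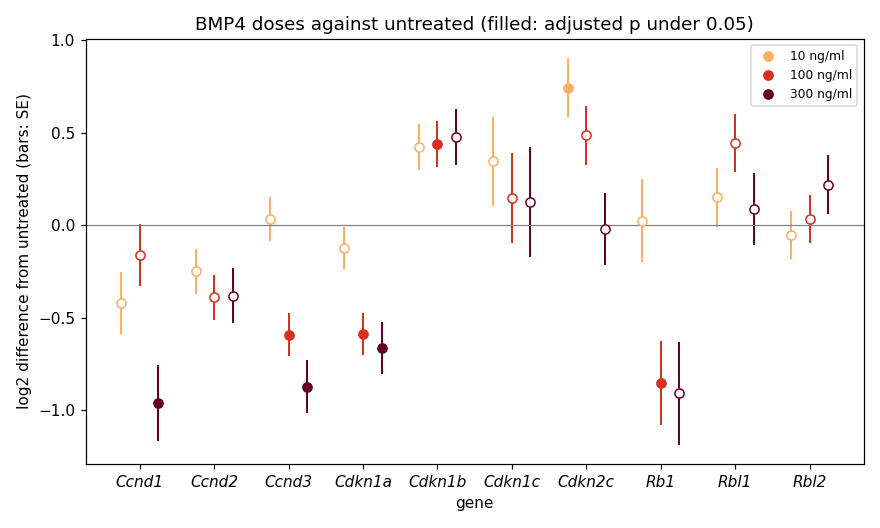
Log2 difference from untreated cells (vertical axis, bars are ± SE) for each gene (horizontal axis) at 10, 100 and 300 ng/ml BMP4, light to dark from left to right; filled points are called. Ccnd3 reads 0.03, -0.59 and -0.87 over the doses and Cdkn2c 0.74, 0.49 and -0.02.

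In the retinoblastoma family, only Rb1 was called at any dose. Rb1 encodes RB, which holds differentiated muscle cells out of the cycle. It read 9.77 and 10.58 at 10 ng/ml, 9.04 and 9.55 at 100 ng/ml, and 9.05 and 9.24 at 300 ng/ml BMP4, against 10.08 and 10.22 in untreated cells and 10.04 to 10.18 in methanol. The arrays at 10 ng/ml lay on opposite sides of the controls, and the 4 arrays of the higher doses lay below every control. The difference from untreated cells was 0.02 at 10 ng/ml, -0.85 at 100 ng/ml (SE 0.227, adjusted p = 0.0389) and -0.91 at 300 ng/ml (adjusted p = 0.0779). The mean over doses was -0.58 (SE 0.193, adjusted p = 0.0991), and it was -0.71 (adjusted p = 0.00637) once replicate 2 at 10 ng/ml was left out. A dimmer second Rb1 probe set, at 4.40 to 6.41 over the arrays, had the opposite sign for the mean (0.19). With both probe sets averaged, Rb1 at 100 ng/ml gave -0.47 and was not called (adjusted p = 0.452). The 2 probe sets that carry both Rb1 and Lpar6 were not used.

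Rbl1 (p107, a pocket protein of cycling cells) read 8.63 and 8.48 at 10 ng/ml, 8.72 and 8.98 at 100 ng/ml, and 8.61 and 8.49 at 300 ng/ml BMP4, against 8.23 and 8.58 in untreated cells and 8.20 to 8.56 in methanol. Only at 100 ng/ml were both arrays above all controls, and the mean difference of 0.23 (SE 0.135, adjusted p = 0.414) was not called. Rbl2 (p130, the pocket protein of resting cells) read 8.42 and 8.15 at 10 ng/ml, 8.36 and 8.38 at 100 ng/ml, and 8.47 and 8.56 at 300 ng/ml BMP4, against 8.21 and 8.46 in untreated cells and 8.22 to 8.35 in methanol. Both arrays at 300 ng/ml lay above every control, the lower of them narrowly, while the arrays at 10 and 100 ng/ml did not. The mean difference for Rbl2 was 0.07 (SE 0.111, adjusted p = 0.836).

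Dose was then examined directly. At 100 ng/ml 1 of the 10 genes (Cdkn1b, 0.44, adjusted p = 0.0454) rose and 3 (Cdkn1a, Rb1 and Ccnd3) fell, where 4.45% of all genes rose and 4.76% fell (9.21% called). At 300 ng/ml 3 fell (Cdkn1a, Ccnd1 and Ccnd3) and none rose, where 3.71% of all genes rose and 4.3% fell (8.01% called). The calls at 100 ng/ml were lost for Cdkn1b and Rb1 when either untreated array, any methanol array or BMP4 100 ng/ml replicate 1 was left out, for Cdkn1b also when BMP4 100 ng/ml replicate 2 was, and for Ccnd3 when untreated replicate 1 or BMP4 100 ng/ml replicate 1 was. Against methanol Cdkn1b at 100 ng/ml was 0.19 (adjusted p = 0.379), and against both controls together 0.29 (adjusted p = 0.0944). At 300 ng/ml the Ccnd1 call was lost when untreated replicate 2 was left out (adjusted p = 0.0523). With the labelling term in the model, the mean at 300 ng/ml comes from replicate 2 alone. The 4 arrays of 100 and 300 ng/ml lay apart from all 5 control arrays for 5 of the 10 genes, below them for Cdkn1a, Rb1, Ccnd2 and Ccnd3 and above them for Cdkn1b, and 21.4% of all genes had groups apart in this way.

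The slope per doubling of BMP4 dose from 10 to 300 ng/ml was called for 3 of the 10 genes, all negative, where 2.29% of all genes had a called positive slope and 3.12% a negative one (5.41% in all). It was -0.19 for Ccnd3 (SE 0.0275, adjusted p = 0.00204), -0.11 for Cdkn1a (SE 0.0268, adjusted p = 0.0259) and -0.14 for Cdkn2c (SE 0.0372, adjusted p = 0.0434). The Cdkn1a slope was -0.07 (adjusted p = 0.125) when replicate 2 at 10 ng/ml was left out. The Cdkn2c slope lost its call when any methanol array or either array at 10 ng/ml was left out. Between 10 and 100 ng/ml alone, which is what remains without replicate 2 at 300 ng/ml, the slope was -0.14 for Cdkn1a (adjusted p = 0.0528) and -0.08 for Cdkn2c (adjusted p = 0.574). Rb1 had a slope of -0.20 that was not called (SE 0.0531, adjusted p = 0.0538), and Ccnd1 one of -0.08 (adjusted p = 0.336). Cdkn1b, Rbl1 and Ccnd2 had slopes between -0.03 and 0.01.

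Between neighbouring doses, the step to 100 from 10 ng/ml was called for Ccnd3 alone (-0.62, SE 0.118, adjusted p = 0.0146), where 1.06% of all genes rose and 1.79% fell (2.85% called). Over the same step Cdkn1a gave -0.47 (adjusted p = 0.0529) and Rb1 -0.88 (adjusted p = 0.0743). The Ccnd3 call was lost when either array at 10 ng/ml (adjusted p = 0.0534 and 0.104) or replicate 1 at 100 ng/ml (adjusted p = 0.126) was left out. For the step to 300 from 100 ng/ml limma called 0 of the 10 genes, where 0.00902% of all genes were called. At an unadjusted p under 0.05 there were 1121 of all 22180 genes and 2 of the 10. The largest of these was Ccnd1 at -0.80 (adjusted p = 0.578), and -1.04 (adjusted p = 0.0320) with BMP4 100 ng/ml replicate 1 left out.

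Myogenin itself read 10.87 and 11.30 at 10 ng/ml, 6.83 and 8.17 at 100 ng/ml, and 6.64 and 5.94 at 300 ng/ml BMP4, against 11.17 and 10.94 in untreated cells. Like Ccnd3, Cdkn1a and Rb1 it was near or above untreated levels at 10 ng/ml on at least 1 array and below every control at both higher doses. Its step to 100 from 10 ng/ml was -3.59 (adjusted p = 0.00175).

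The genes whose signals followed each called gene most closely over the 20 arrays were sought among 2343 genes with an SD of at least 0.3, by Pearson's r. For Cdkn1a they were Cnot6l, Prkag3 and Tmem38b, at r = 0.979 to 0.980. For Ccnd3 they were Popdc2, Tubb6 and Rapsn, at r = 0.950 to 0.972. Ccnd1 was followed by Eps8 (r = 0.934), Itga3 (r = 0.932) and Cdk6 (r = 0.922), and Cdkn1b by Creg1 (r = 0.870), E130311K13Rik (r = 0.862) and Ecm2 (r = 0.857). These are descriptions over arrays that share the BMP4 groups, and the arrays at 100 and 300 ng/ml stand apart from the rest.

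Of the other genes of the G1 and RB pathway, a list of 32 held 30 with a probe set of their own. With BMP4, 2 of the 30 rose and 3 fell, where 4.22% of all genes rose and 4.59% fell, and the median difference was 0.01, against -0.01 over all genes. Myc, a growth-promoting transcription factor, rose by 0.73 (SE 0.113, adjusted p = 0.00133), and E2f5, an E2F that works with p107 and p130, by 0.42 (adjusted p = 0.0363). The activator E2f2 fell by 1.82 (SE 0.177, adjusted p = 4.89e-05), the repressive E2f8 by 0.95 (adjusted p = 0.0209), and E2f4, which pairs with the pocket proteins, by 0.87 (SE 0.0983, adjusted p = 0.000147). The cyclin D partners did not pass, with Cdk6 at -0.85 (adjusted p = 0.0567) and Cdk4 at -0.04 (adjusted p = 0.828).

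The next question was whether the compounds moved the same genes. None of the 10 genes was called against methanol for compound 942, 178 or 181 as a mean over doses. Limma called 0% of all genes for 942, 0% for 178 and 0.00451% for 181, so little passed anywhere. At an unadjusted p under 0.05 there were 0 of the 10 genes for 942, 0 for 178 and 1 for 181, with 334, 545 and 817 over all genes. Each compound dose had 1 array, whose spread was taken from the replicated groups, and the typical error of a mean was 0.274 for 942, against 0.137 for 178 or 181.

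Cyclin D3 was the gene nearest to a difference. Its signals over 6.25, 12.5 and 25 µM were 10.44, 10.35 and 10.07 with 942, 10.21, 10.24 and 10.31 with 178, and 10.13, 10.14 and 9.66 with 181, against 10.38, 10.19 and 10.12 in methanol. The value at 25 µM of 181 was below every other array without BMP4 and near the higher of the BMP4 100 ng/ml arrays. At that dose the difference from methanol was -0.57 (95% interval -0.87 to -0.27, unadjusted p = 0.00122, adjusted p = 0.306), and it rests on a single array. Over the alternatives tried it ran between -0.62 and -0.50, with adjusted p between 0.151 and 0.560, and against the methanol arrays of its own run it was -0.50. Where 0.018% of all genes were called at 25 µM of 181, none was among the 10.

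As a mean over doses Ccnd3 gave -0.25 for 181 (95% interval -0.46 to -0.04, adjusted p = 0.9998), 0.02 for 178 (-0.19 to 0.23) and -0.11 for 942 (-0.53 to 0.31). The 942 value includes the labelling term, and the plain mean of 942 was 10.29, against 10.23 in methanol. Without the 25 µM array the mean for 181 was -0.10. The Ccnd3 slope per doubling of dose was -0.24 for 181 and -0.19 for 942 (unadjusted p = 0.0150 and 0.0446), and 0.05 for 178, with none called.

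Cdkn1a ran at 12.27, 12.29 and 12.10 with 942, 12.35, 12.36 and 12.28 with 178, and 12.28, 12.22 and 12.04 with 181 over the rising doses, against 12.32, 12.32 and 12.23 in methanol. The arrays at 25 µM of 181 and of 942 were the lowest without BMP4. Their differences from methanol were -0.25 for 181 (95% interval -0.54 to 0.03, adjusted p = 0.842) and -0.24 for 942 (-0.69 to 0.22). The values of 942 shift with the labelling term, which all 3 of its arrays carry: without that term its difference at 25 µM was -0.19 for Cdkn1a and -0.16 for Ccnd3, where the term gave -0.33.

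**Figure D3:**
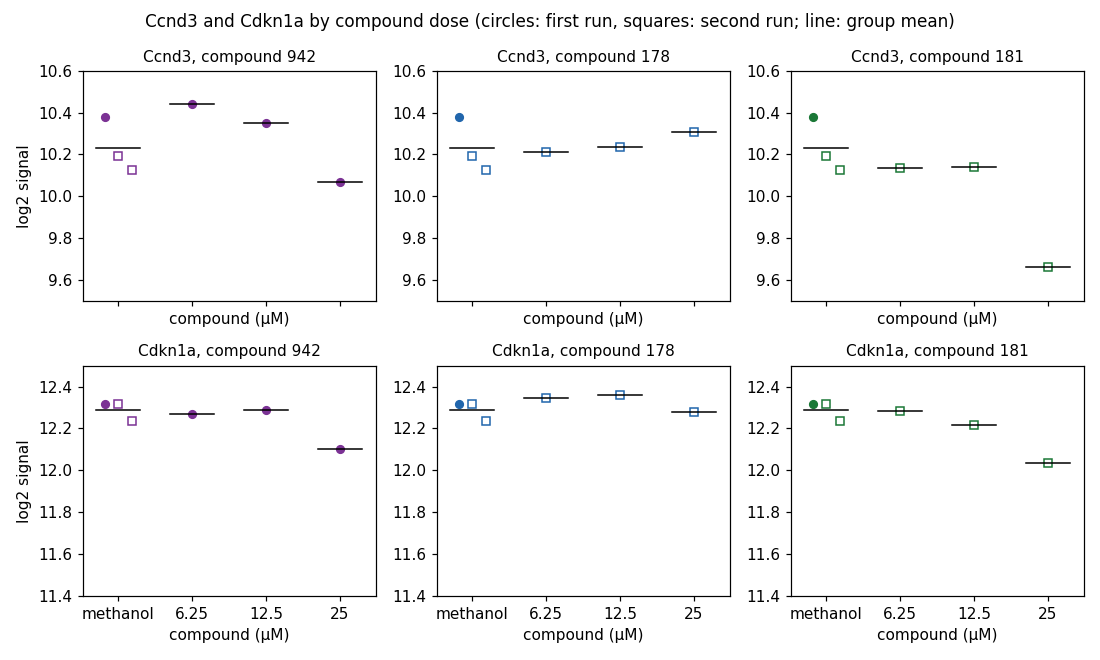
Log2 signal (vertical axis) of Ccnd3 and Cdkn1a on each methanol array and at each compound dose in µM (horizontal axis), 1 array per compound and dose; circles are arrays of the first run of sample numbers, squares those of the second, and lines mark group means. Ccnd3 reads 9.66 at 25 µM of compound 181, against 10.12 to 10.38 in methanol, and Cdkn1a reads 12.04 there.

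For the other D-type cyclins, Ccnd1 lay between 9.41 and 9.67 and Ccnd2 between 8.52 and 8.85 on the compound arrays, so neither reached the low values of BMP4 at 300 ng/ml. The mean differences from methanol were -0.21, -0.09 and -0.08 for Ccnd1 and 0.15, -0.03 and 0.08 for Ccnd2, with 942, 178 and 181 in that order. The 942 values here include the labelling term, which rests on the difference between the BMP4 300 ng/ml arrays. Those arrays lie in different runs of sample numbers. In the reported fit the term therefore also takes up any difference between the runs. As plain signals the 942 mean was 9.56 for Ccnd1 and 8.58 for Ccnd2, against 9.60 and 8.62 in methanol. Cdkn1b lay between 8.08 and 8.41 and differed from methanol by -0.03, -0.06 and -0.03. Cdkn2c lay between 7.55 and 7.83, with differences of -0.26, -0.06 and 0.04, and no array reached the values of BMP4 at 10 ng/ml. Its plain mean was 7.67 with 942 and 7.73 in methanol. Rb1 lay between 9.82 and 10.17, above every array of BMP4 at 100 and 300 ng/ml. Its 942 arrays, at 9.82 to 9.98, lay below every control array. The plain mean of Rb1 was 9.91 with 942 and 10.10 in methanol, where the labelling term gave a difference of -0.004. Rbl1, Rbl2 and Cdkn1c kept within 0.19 of methanol as means for every compound. The 942 arrays of Rbl2, at 8.08 to 8.17, also lay below every control array, the lowest of which read 8.21. A p that misses the threshold does not show that these genes stayed the same, since the interval for Rb1 with 942 alone ran between -0.82 and 0.81.

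**Figure D4:**
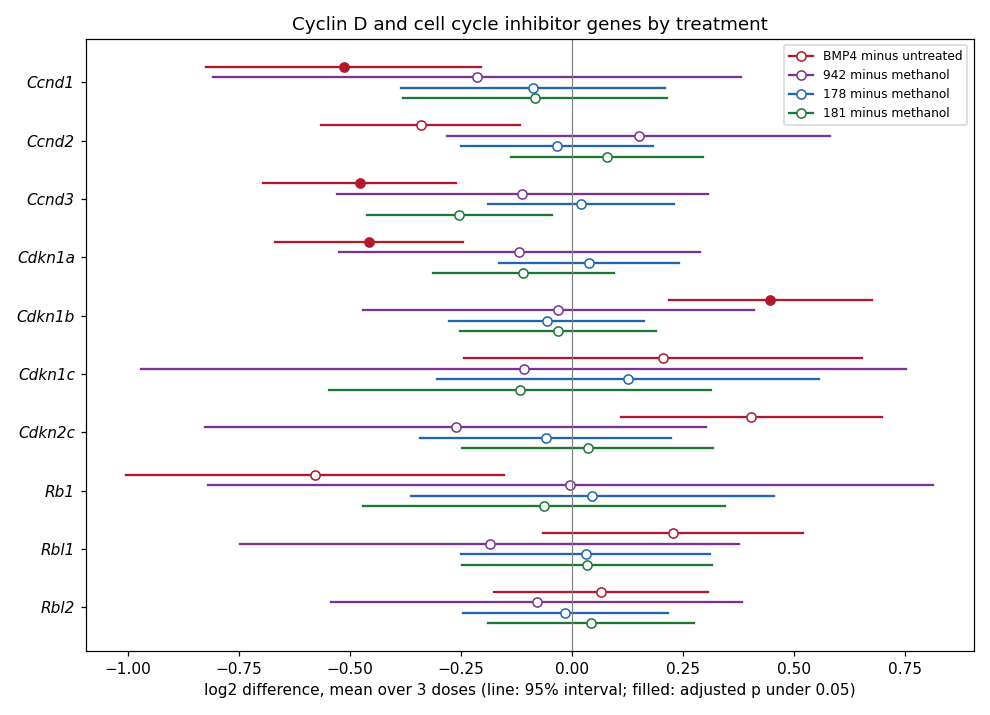
Log2 difference of the mean over doses (horizontal axis, bars are 95% intervals) of each gene for BMP4 minus untreated cells and for compounds 942, 178 and 181 minus methanol; filled points are called. Filled points are seen with BMP4 for Ccnd1, Ccnd3, Cdkn1a and Cdkn1b, and with no compound.

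The difference between the BMP4 effect and each compound effect was tested in the same fit, with 0 of the 10 genes called for any compound. All genes were called at 0.771% against 942, 3.53% against 178 and 2.76% against 181. At an unadjusted p under 0.05 there were 3, 5 and 4 of the 10 genes, with 1993, 3067 and 2886 over all 22180 genes. The nearest were Cdkn1a against 178 at -0.50 (adjusted p = 0.0732), Ccnd3 against 178 at -0.50 (adjusted p = 0.0809) and Cdkn1b against 178 at 0.50 (adjusted p = 0.0957). Against 181 the Ccnd3 difference was -0.22 (adjusted p = 0.587) and that of Cdkn1a -0.35 (adjusted p = 0.267). Against 942, where the labelling term enters again, Cdkn2c gave 0.67 (adjusted p = 0.420). A call with BMP4 and none with a compound is therefore no shown difference between them for these 10 genes. With methanol as the control of BMP4 too, 4 of the 10 were called against 178 and 3 against 181, where 11.5% and 10.1% of all genes were called, and that control then cancels from the comparison.

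Compounds were set against each other at matched doses and as means, in 12 comparisons, and limma called 0 of the 10 genes in all of them, where at most 0.00451% of all genes were called in any. The widest gap was Ccnd3 at 25 µM, 181 minus 178, at -0.64 (95% interval -1.01 to -0.28, unadjusted p = 0.00217, adjusted p = 0.606). At 6.25 µM the same pair differed by -0.08 (-0.44 to 0.28). At 25 µM 942 minus 178 was -0.41 (-0.92 to 0.11) and 942 minus 181 was 0.24 (-0.27 to 0.75) for Ccnd3. Without the labelling term these differences were -0.24 and 0.40. All 942 arrays lie in the first run of sample numbers, and all 178 and 181 arrays in the second. Differences of 942 from 178 or 181 therefore also span the runs, and the reported fit holds no run term. In methanol Ccnd3 read 10.38 in the first run and 10.19 and 10.12 in the second. For Cdkn1a the 25 µM difference of 181 minus 178 was -0.24 (-0.59 to 0.11).

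Methanol and untreated cells were compared to set the background. None of the 10 genes was called, where 0% of all genes were called and 629 had an unadjusted p under 0.05. Beside Cdkn1b, the largest differences of methanol minus untreated were 0.18 for Ccnd2, 0.15 for Cdkn2c and 0.14 for Ccnd1. Within each run of sample numbers, the BMP4 mean minus untreated was -0.53 and -0.36 for Cdkn1a, 0.53 and 0.37 for Cdkn1b, -0.42 and -0.55 for Ccnd1 and -0.55 and -0.35 for Ccnd3, first and second run in that order. For Cdkn1c (-0.14 and 0.57) and Rbl2 (0.20 and -0.10) the runs differed in sign.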

How the data were processed

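The deposited values are log2 signals, 1 per probe set and array. Per the submitters' processing notes the authors made them with RMA in Partek 6.5, and per the labels' protocols some RNA was labelled by a method called Affyexpress, which is the label of 4 arrays (BMP4 300 ng/ml replicate 1 and compound 942). The sources used here do not say whether labelling was corrected for. Of 41345 probe sets, 23521 carry 1 symbol in the platform annotation, 1814 several and 16010 none there. Genes were read from their probe set with the highest mean.

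Limma 3.58.1 (R 4.3.3, lmFit, eBayes with trend and robust) was fitted to all 20 arrays with a mean per treatment and dose. A labelling term was added, leaving 5 residual degrees of freedom (median prior 7.14). The fit was also run on simulated data, whose set changes were larger than any called for the 10 genes in the reported fit. That run does not cover smaller changes. P-values were adjusted by Benjamini-Hochberg over 22180 genes. All 10 genes were named, and pathway genes where called for the BMP4 mean. The genes, lists and tests were chosen with earlier results of these data known. The first run of sample numbers and the second each hold untreated, methanol and BMP4 arrays. The 942 arrays all lie in the first, and the 178 and 181 arrays all in the second. The labels name no runs. The cut was set here where the sequence of untreated, methanol and BMP4 arrays starts again in the sample numbers. Alternatives covered labelling, run, moderation, probe sets, filters, normalization, controls and each array left out. Arrays give no depth, and their number limits the precision.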

Additional observations from a re-analysis of the deposited data

How the results depend on the processing

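The labels carry no replicate numbers to pair arrays by, so the reported fit was unpaired. Both runs of sample numbers hold untreated, methanol and all BMP4 groups, and an alternative fitted the run as a block in place of such numbers. Counts are of the 10 genes called. For the BMP4 mean (4 called) the count was 7 without the labelling term, 7 with a run term, and 2 each with plain moderation (no trend, not robust), median centring and a common mean over doses; leaving out 1 array gave 0 to 5. At 10 ng/ml (1 called) it was 0 with plain moderation, averaged probe sets, median centring or methanol as control, and 0 to 1 without 1 array. At 100 ng/ml (4 called) it was 7 with the run term and 2 with plain moderation, and 1 to 4 without 1 array, the 1 without untreated replicate 1. At 300 ng/ml (3 called) it was 6 without the labelling term, 5 with the run term and 5 with pooled controls, and 2 to 4 without 1 array, the 2 without untreated replicate 2. The dose slope (3 called) gave 1 with plain moderation and 1 to 4 without 1 array. Without BMP4 300 ng/ml replicate 2 the mean and slope cover 10 and 100 ng/ml alone. The dose steps (1 called) gave 2 without the labelling term, 3 with the run term, 0 with plain moderation, 2 without dim genes, 3 with median centring and 0 to 2 without 1 array.

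BMP4 minus the effect of 178 (0 called) gave 1 without the labelling term, 3 with the run term, 4 with methanol as control, 4 with pooled controls and 0 to 3 without 1 array. BMP4 minus that of 181 (0 called) gave 3 with methanol as control, 3 with pooled controls and 0 to 1 without 1 array. The count stayed at 0 in every alternative run for BMP4 minus 942, for the compounds against methanol, their slopes and their differences, and for methanol minus untreated. No single-gene difference called in the reported fit changed sign; over genes, comparisons and alternatives 9940 values stayed on their side of the threshold, 81 moved past it and 69 lost it. Over all genes the BMP4 mean called 1954, against 3001 with the run term, 3156 with pooled controls, and 892 or 1197 without untreated replicate 1 or 2. The largest absolute median difference over all genes in any comparison was 0.0372 in the reported fit. Over the alternatives it was at most 0.0823, with median centring. The causes were not tested. For the BMP4 mean, dropping the labelling term called Rb1 (adjusted p = 0.0491) and Ccnd2 (0.0267), as did the run term (0.0101 and 0.0209). Comparisons of 942 with other groups could not be fitted when either BMP4 300 ng/ml array was left out, nor those of 300 ng/ml without replicate 2.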

Other observations

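Over the same list of 30 other G1 and RB pathway genes, the slope per doubling of BMP4 dose was called for 7 genes, 1 rising and 6 falling, where 5.41% of all genes were called. Myc rose by 0.18 per doubling. E2f2 fell by 0.39, E2f8 by 0.30, E2f4 by 0.16, Mybl2 (a regulator of G2 and M genes) by 0.12, Skp2 (the ubiquitin ligase subunit that targets p27) by 0.11 and Rbbp4 (a histone-binding protein of the DREAM and NuRD complexes) by 0.08. Mybl2, Skp2 and Rbbp4 are named after their values were seen. None of the 30 was called for a compound against methanol.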
